A study of Mus musculus with 8 samples.

Results

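The genes described here are those of the SREBP pathway, which makes sterols and fatty acids. They were chosen as a list of 35 gene symbols, of which 34 were measured out of 19938 genes on the arrays, each by the probe set with the highest mean level. The list held 18 enzymes of sterol synthesis (17 measured), 11 enzymes of fatty acid synthesis and its supply reactions, 5 regulators of SREBP and Stard4, a carrier of sterols between membranes. No probe set carried Acat2, the cytosolic thiolase, as its single gene symbol, and that gene was not analysed here. The knockout group was 4 arrays (replicates 5 to 8) of mice carrying floxed Lhx2 together with Mx1Cre, a transgene whose interferon-driven promoter is not limited to stellate cells. The control group was 4 arrays (replicates 1 to 4) of mice carrying floxed Lhx2 without Cre. All mice had a C57BL/6J background and had received poly(I:C), an inducer of interferon, 3 times. RNA came from hepatic stellate cells, pericytes that store vitamin A, which were enriched by density centrifugation and sorted by their retinoid autofluorescence 2 weeks after that treatment. Nothing in the labels ties an array to its own animal, so the p-values below reflect only how these arrays spread, and that spread may be technical. Only the knockout mice had Cre, so its own effects and those of losing Lhx2 cannot be told apart.

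SREBP-1 and SREBP-2, encoded by Srebf1 and Srebf2, are transcription factors made as membrane proteins of the endoplasmic reticulum. The escort protein SCAP carries them to the Golgi for cleavage when sterols are low, and the Insig proteins hold SCAP back when sterols are high. The cleaved factors enter the nucleus and bind sterol regulatory elements, usually beside a CCAAT box bound by NF-Y. SREBP-2 acts mainly on sterol synthesis genes and SREBP-1 mainly on fatty acid genes, and Insig1, Srebf1 and Srebf2 are themselves SREBP targets. In the liver most of this synthesis is known from hepatocytes.

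The arrays were alike at the scale of the whole table. The deposited values are log2 expression levels, and the array medians lay between 7.42 and 7.47. Pairs of knockout arrays had a Pearson correlation of 0.993 to 0.996 across probe sets and pairs of control arrays one of 0.987 to 0.996. Lhx2, a LIM homeobox factor and the deleted gene, had log2 levels of 11.09, 11.24, 11.35 and 11.49 in the knockout arrays, against 12.07, 11.88, 11.94 and 11.92 in the control arrays. The groups did not overlap, and the knockout kept 63.3% of the control level (limma adjusted p = 0.00136; exact two-sided permutation p = 0.0286, the smallest that 4 arrays against 4 allow). The probe set may lie outside the floxed part, in which case it does not measure the deletion. Markers of other liver cells varied between arrays of both groups. The mean log2 level of 16 hepatocyte markers ran from 9.11 to 10.73 in the knockout arrays and from 8.62 to 10.80 in the control arrays. For 12 endothelial markers it ran from 8.39 to 9.90 in the knockout arrays and from 8.28 to 11.16 in the control arrays. Control 1 had the highest hepatocyte and lowest endothelial level of the 8 arrays, and control 4 the lowest hepatocyte and highest endothelial level. The mean level of 10 stellate cell markers was 13.20 to 13.25 in the knockout arrays and 13.32 to 13.42 in the control arrays, and the difference was negative for 7 of them, with a median of -0.11.

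Promoter sequence was at hand for 28 of the 35 members, as 37 RefSeq windows (GRCm38.p6) of 250 bases before to 50 bases after a gene's start. Shown are the bases before the start for Hsd17b7, the sterol branch gene with the largest rise, for Hmgcs1 and Insig1, the measured members with a match to the core of the sterol regulatory element, and for Srebf2, which encodes the factor itself. These 4 were chosen after values and matches were seen, because no gene with a window that passed the test below held the full element. Sqle, Fdps, Fdft1, Stard4, Scd1, Scd2 and Fads1 had no window and were not searched. Lines are 5′ to 3′ along the gene's strand, and capitals mark matches on either strand to the element TCACNCCAC, its core CACNCCAC, the CCAAT box (ATTGG on the other strand) and the E-box CACGTG.
Hsd17b7, chr1:169969206-169969455, minus strand: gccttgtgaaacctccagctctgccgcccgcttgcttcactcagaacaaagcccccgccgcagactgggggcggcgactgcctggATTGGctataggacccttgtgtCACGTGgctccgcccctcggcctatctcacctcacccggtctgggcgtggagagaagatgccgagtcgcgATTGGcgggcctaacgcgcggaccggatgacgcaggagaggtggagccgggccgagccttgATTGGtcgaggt
Hmgcs1, chr13:119690101-119690350, plus strand: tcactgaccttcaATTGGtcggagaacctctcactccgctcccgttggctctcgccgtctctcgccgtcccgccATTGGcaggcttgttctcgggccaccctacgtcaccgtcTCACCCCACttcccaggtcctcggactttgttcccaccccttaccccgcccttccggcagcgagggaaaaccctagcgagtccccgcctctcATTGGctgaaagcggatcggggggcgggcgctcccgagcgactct
Insig1, chr5:28071162-28071411, plus strand: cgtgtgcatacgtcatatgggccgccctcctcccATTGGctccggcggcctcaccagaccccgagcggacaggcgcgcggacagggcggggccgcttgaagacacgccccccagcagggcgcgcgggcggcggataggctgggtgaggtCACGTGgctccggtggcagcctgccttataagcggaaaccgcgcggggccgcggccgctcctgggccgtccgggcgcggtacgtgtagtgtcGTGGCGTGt
Srebf2, chr15:82147019-82147268, plus strand: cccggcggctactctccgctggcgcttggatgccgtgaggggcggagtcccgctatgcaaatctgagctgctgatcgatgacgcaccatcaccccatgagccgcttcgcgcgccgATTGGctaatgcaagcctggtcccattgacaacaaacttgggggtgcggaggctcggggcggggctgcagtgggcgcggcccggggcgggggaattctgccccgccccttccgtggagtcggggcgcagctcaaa

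A CCAAT box was common in these promoters, and the exact sterol regulatory element was rare. CCAAT was found on either strand in 23 of the 28 members with a window (82.1%), against 41.7% of the 15614 genes on the arrays that have one. By window, 24 of 37 member windows (64.9%) and 37.4% of all 32851 windows held it. The members without it were Acaca, Acat2, Elovl6, Fads2 and Scap. It was present in 14 of 15 sterol branch genes, 4 of 5 regulators and 5 of 8 fatty acid genes. TCACNCCAC matched in Hmgcs1 alone, 137 bases before its start, which is 2.7% of member windows against 1.24% of all windows. The shorter core, which every TCACNCCAC match contains, was found in Hmgcs1, Insig1 and Acat2, in 8.11% of member windows against 6.24% of all windows. In Insig1 the core lay on the other strand, 9 bases before the start. The E-box was found in Dhcr7, Elovl5, Hsd17b7, Insig1, Sc5d and Scap. These are 6 of the 28 members with a window (21.4%), against 9.5% of the genes on the arrays that have one. By window it was 18.9% of member windows against 7.15% of all windows, where overlapping windows of Scap count the same site again. These matches describe letters in a window of 300 bases, and elements with other letters or farther away were not searched.

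Of the 34 measured members, 19 rose in the knockout, 1 fell and 14 did not pass the test. The test was limma across all genes, with adjustment by the Benjamini-Hochberg method and a threshold of 0.05. Over all 19938 genes 7.38% passed, 3.76% as higher and 3.63% as lower. The median log2 difference, knockout minus control, was 0.47 over the members and -0.02 over all genes. In 22 members every knockout array lay above every control array, and in 1 every knockout array lay below. Over all genes such separation was found in 6.38% as higher and 6.32% as lower. Of the 20 members that passed, 11 changed at least 1.5-fold and 2, Hsd17b7 and Elovl6, at least 2-fold. The other 17 genes that rose did so by 1.24-fold to 1.97-fold, as the plot of differences by gene shows.

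**Figure D1:**
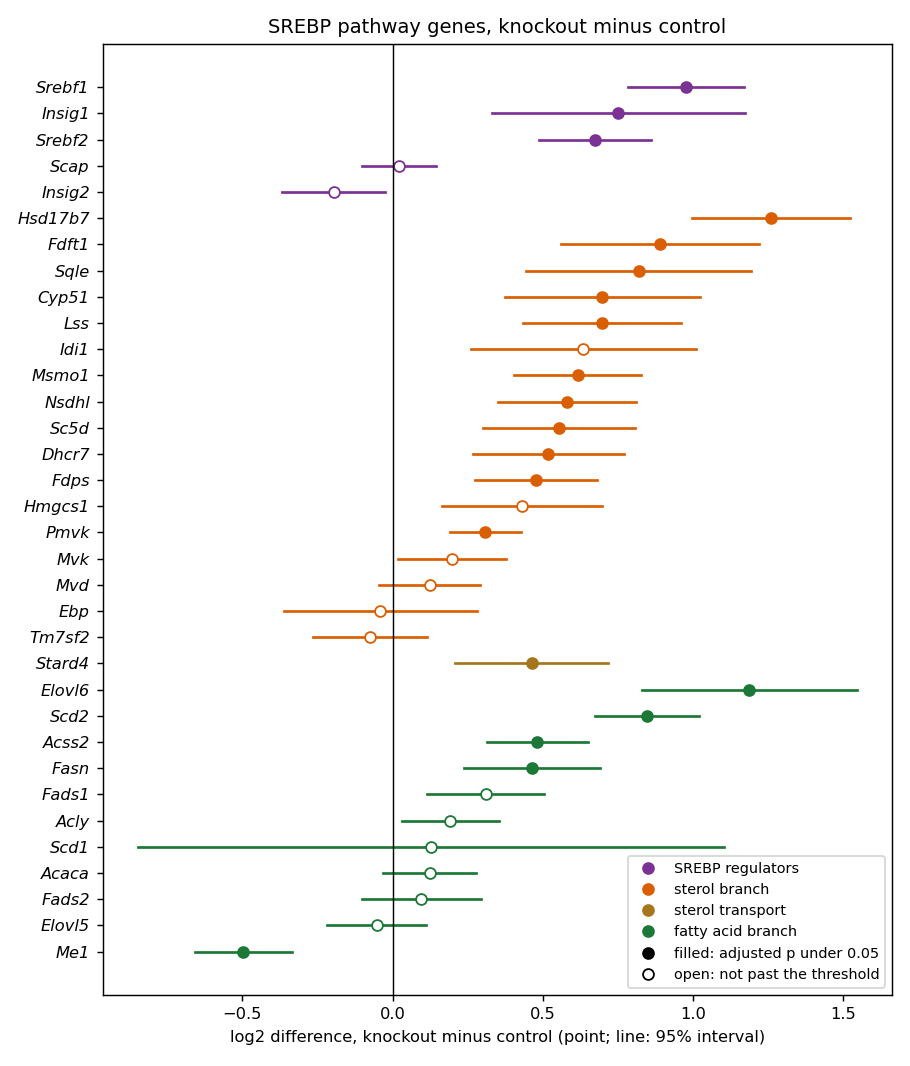
The x axis is the log2 difference in level, knockout minus control, of each of the 34 measured genes, grouped by colour; lines are 95% intervals from limma and filled points passed the adjusted threshold. Sterol branch genes lie mostly right of 0, up to 1.26 for Hsd17b7, fatty acid genes spread from -0.50 for Me1 to 1.19 for Elovl6, and the interval of Scd1 is the widest.

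Both genes for the SREBP factors rose, and so did Insig1, while Insig2 and Scap did not pass. Srebf1, which drives fatty acid genes, had log2 levels of 10.71, 10.79, 10.92 and 11.08 in the knockout arrays, against 9.90, 9.77, 9.95 and 9.98 in the control arrays. Every knockout array lay well above every control array, a 1.97-fold rise (log2 difference 0.98, SE 0.09; limma adjusted p = 0.000101). The probe set for Srebf1 gives 1 value per array, so its isoforms cannot be told apart. Srebf2, which drives sterol genes, had levels of 10.90, 10.64, 10.67 and 10.96 in the knockout arrays, against 10.15, 10.01, 10.18 and 10.13 in the control arrays. The groups again did not overlap, and the rise was 1.59-fold (0.67, SE 0.08; limma adjusted p = 0.000926).

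Insig1, the Insig gene that SREBP itself induces, had levels of 10.67, 10.56, 11.32 and 11.35 in the knockout arrays, against 10.30, 10.09, 10.43 and 10.08 in the control arrays. All knockout arrays were higher, but knockout 5 and 6 lay close to the highest control array and knockout 7 and 8 far above it. The rise of 1.68-fold (0.75, SE 0.19) had a limma adjusted p of 0.0412, and it missed the threshold when knockout 7, knockout 8 or any single control array was dropped (adjusted p up to 0.118). With all arrays kept it also missed in limma with a trended, robust variance (adjusted p = 0.0688). Insig2, the less sterol-dependent relative, averaged 10.52 ± 0.12 in the knockout and 10.72 ± 0.10 in the control group (SD, n = 4 each). Its difference of -0.20 did not pass (95% interval -0.37 to -0.02; limma adjusted p = 0.21), and the groups overlapped. Scap, the escort protein, averaged 10.81 ± 0.08 in the knockout and 10.79 ± 0.04 in the control group (SD, n = 4 each), a difference of 0.02 with a 95% interval of -0.10 to 0.14 (limma adjusted p = 0.923).

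In the sterol branch 11 of 17 measured enzymes rose and 6 did not pass, where 3.76% of all genes were called higher. The median difference was 0.55 on the log2 scale. In 13 of the 17 the knockout arrays were all above the control arrays, against 6.38% of all genes. Along the pathway, 2 of 6 enzymes up to farnesyl pyrophosphate rose, all 3 enzymes from there to lanosterol, and 6 of 8 from lanosterol to cholesterol. The medians of these steps were 0.37, 0.82 and 0.57. When control 1 and control 4, the arrays with the extreme hepatocyte and endothelial levels, were both left out, 4 of the 17 passed (Hsd17b7, Fdft1, Sqle and Msmo1), in a comparison of fewer arrays. The differences were about as large there, with a median of 0.56 over the 17 genes, 0.74 for Cyp51, 0.62 for Nsdhl and 0.68 for Lss. With hepatocyte and endothelial marker levels as covariates, 13 passed. Portal fibroblast and stellate cell marker levels, whose means separate the groups, were not among the covariates. The part of cell content in the rise was therefore not tested.

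The first steps make isoprenoid units from acetyl groups. Hmgcs1, the cytosolic HMG-CoA synthase, had log2 levels of 9.56, 9.59, 10.09 and 9.93 in the knockout arrays, against 9.42, 9.25, 9.46 and 9.32 in the control arrays. The groups did not overlap, but the difference of 0.43 (SE 0.12) missed the threshold (95% interval 0.17 to 0.70; limma adjusted p = 0.0625). Idi1, the isomerase of isopentenyl pyrophosphate, was similar, at 8.05, 8.29, 8.92 and 8.55 in the knockout arrays, against 7.95, 7.61, 7.93 and 7.79 in the control arrays. Its difference was 0.63 (SE 0.17; limma adjusted p = 0.0517), with knockout 5 the closest to the control arrays and the other 3 knockout arrays clearly above them. Hmgcs1 passed in 5 of 20 alternative settings and Idi1 in 9, both with marker levels as covariates (adjusted p = 0.00473 and 0.00716). Of the 8 fits without a single array, both passed only in that without knockout 5 (0.0398 and 0.0188). The second probe set of Idi1 gave a difference of 0.58. Pmvk, phosphomevalonate kinase, rose by a small but even amount, 8.27 ± 0.04 in the knockout against 7.96 ± 0.07 in the control group (SD, n = 4 each; limma adjusted p = 0.00593). Fdps, which makes farnesyl pyrophosphate, rose 1.39-fold (limma adjusted p = 0.0111). The kinase Mvk and the decarboxylase Mvd, which act before and after Pmvk, had differences of 0.20 (95% interval 0.02 to 0.38) and 0.12 (-0.05 to 0.29) and did not pass.

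The 3 enzymes that commit the pathway to sterols rose together. Fdft1, squalene synthase, had log2 levels of 8.84, 8.52, 9.06 and 9.27 in the knockout arrays, against 8.11, 7.83, 8.11 and 8.08 in the control arrays. All knockout arrays were higher, a rise of 1.85-fold (0.89, SE 0.15; limma adjusted p = 0.00512), and its second probe set gave 0.75. Sqle, the squalene epoxidase, had levels of 8.80, 8.40, 8.88 and 9.05 in the knockout arrays, against 8.33, 7.70, 8.07 and 7.76 in the control arrays. Knockout 6 lay just above control 1, and the other knockout arrays stood apart. The rise was 1.76-fold (0.82, SE 0.17; limma adjusted p = 0.0162), and its adjusted p was 0.0504 without control 2. Lss, lanosterol synthase, rose 1.62-fold (0.70, SE 0.12; limma adjusted p = 0.00582).

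Among the later enzymes, the 3 that remove the methyl groups at carbon 4 of the sterol ring all rose. Hsd17b7, the ketoreductase of this step, had log2 levels of 9.59, 9.82, 10.00 and 10.13 in the knockout arrays, against 8.70, 8.55, 8.78 and 8.47 in the control arrays. Its lowest knockout array was far above its highest control array, a 2.39-fold rise (1.26, SE 0.12; limma adjusted p = 0.000152). Msmo1, the methyl oxidase, averaged 10.13 ± 0.14 in the knockout and 9.51 ± 0.15 in the control group (SD, n = 4 each), a rise of 0.62 (limma adjusted p = 0.00326). Nsdhl, the decarboxylase, averaged 9.76 ± 0.15 in the knockout and 9.18 ± 0.17 in the control group (SD, n = 4 each), a rise of 0.58 (limma adjusted p = 0.00735). Around this step, Cyp51, which removes a methyl group from lanosterol, rose 1.62-fold, Sc5d, a sterol desaturase, 1.47-fold, and Dhcr7, the last reductase of one route to cholesterol, 1.43-fold (limma adjusted p = 0.0173, 0.0163 and 0.0211). Each of these 3 calls was lost when at least 1 single array was left out, namely knockout 8 or control 2 for Cyp51 and Sc5d (adjusted p up to 0.0571 and 0.0528) and knockout 5, 7 or 8 for Dhcr7 (up to 0.0644).

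A pair of enzymes between these steps did not pass. Ebp, the sterol isomerase, had levels of 9.58, 9.17, 9.66 and 9.41 in the knockout arrays, against 9.23, 9.37, 9.82 and 9.57 in the control arrays. The groups were fully mixed, with a difference of -0.04 (95% interval -0.36 to 0.28; limma adjusted p = 0.946). Tm7sf2, a sterol reductase that acts after Cyp51, averaged 7.73 ± 0.08 in the knockout and 7.81 ± 0.16 in the control group (SD, n = 4 each). Its difference of -0.08 had a 95% interval of -0.26 to 0.11 (limma adjusted p = 0.779), which leaves out the size seen in its neighbours Cyp51 and Msmo1.

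Stard4 rose 1.38-fold, at 7.93 ± 0.21 in the knockout against 7.47 ± 0.15 in the control group (SD, n = 4 each; limma adjusted p = 0.0381). Control 4 lay at 7.63, just under knockout 5 at 7.68. Its call was lost when knockout 6, 7 or 8 or control 1, 2 or 3 was dropped, with an adjusted p of up to 0.107, and with all arrays under quantile normalization (adjusted p = 0.0526).

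**Figure D2:**
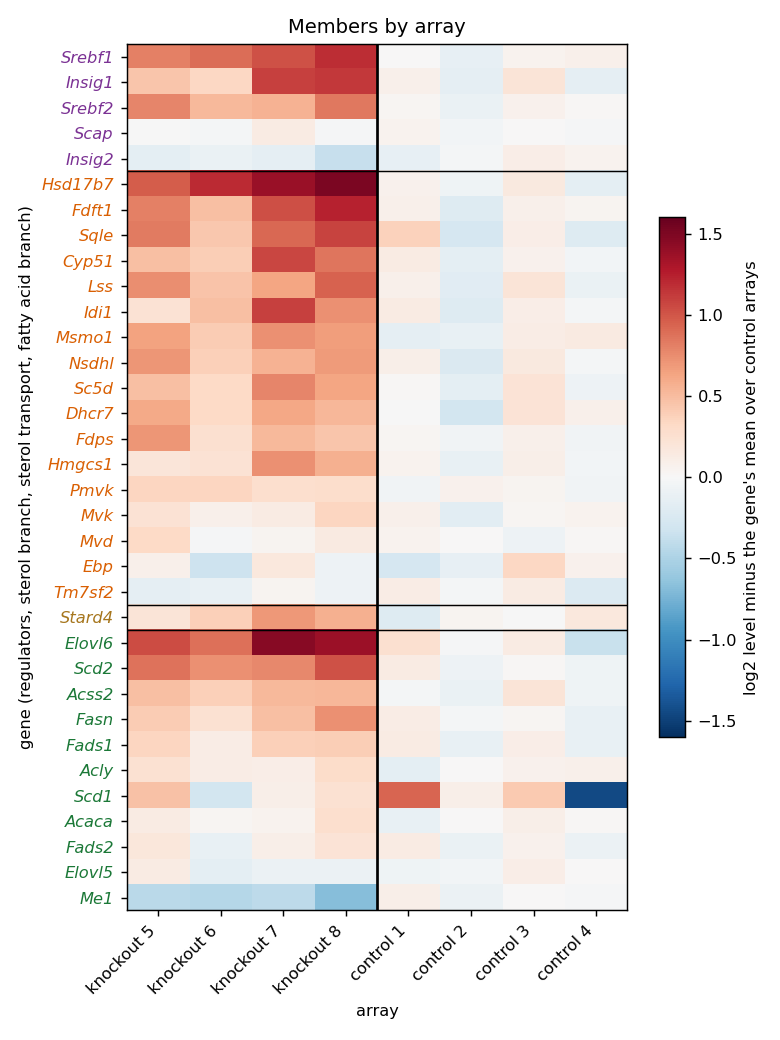
Rows are the 34 genes and columns the 8 arrays, knockout arrays left; colour is the log2 level minus that gene's mean over the control arrays, red for higher. The red block of the knockout arrays covers most regulators and sterol genes and is paler in knockout 6, Me1 forms a blue row, and the Scd1 row is mixed, with control 4 the darkest blue cell.

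The fatty acid branch was mixed: of 11 genes 4 rose, 1 fell and 6 did not pass, with a median difference of 0.19. Over all genes 3.76% were called higher and 3.63% lower. The 4 that rose, Elovl6, Scd2, Acss2 and Fasn, act in making saturated fatty acids, in lengthening and desaturating them and in supplying acetyl-CoA. Elovl6, the elongase of palmitate, had log2 levels of 10.07, 9.91, 10.49 and 10.40 in the knockout arrays, against 9.29, 9.01, 9.16 and 8.67 in the control arrays. The lowest knockout array was well above the highest control array, a rise of 2.28-fold (1.19, SE 0.16; limma adjusted p = 0.00153). Scd2, a stearoyl-CoA desaturase found in many tissues, had levels of 12.94, 12.79, 12.84 and 13.08 in the knockout arrays, against 12.20, 11.98, 12.08 and 12.00 in the control arrays. Both groups were tight and far apart, a rise of 1.80-fold (0.85, SE 0.08; limma adjusted p = 0.00013).

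Fasn, fatty acid synthase, had levels of 11.03, 10.87, 11.12 and 11.36 in the knockout arrays, against 10.75, 10.61, 10.66 and 10.51 in the control arrays. The groups did not overlap, and the rise was 1.38-fold (0.46, SE 0.10; limma adjusted p = 0.0225). That call was lost without knockout 7, control 2 or control 4 (adjusted p up to 0.0664). Acss2, which activates acetate, rose 1.40-fold, at 9.84 ± 0.07 in the knockout against 9.36 ± 0.14 in the control group (SD, n = 4 each; limma adjusted p = 0.00374). The genes for the other entry reactions did not pass. Acly, ATP citrate lyase, had a difference of 0.19 (95% interval 0.03 to 0.35; limma adjusted p = 0.184) with groups that did not overlap. Acaca, acetyl-CoA carboxylase, had one of 0.12 (-0.03 to 0.28; limma adjusted p = 0.449), and 0.13 by its second probe set.

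The genes of polyunsaturated fatty acid synthesis, the desaturases Fads1 and Fads2 and the elongase Elovl5, did not pass. Fads1 had a difference of 0.31 (95% interval 0.11 to 0.51; limma adjusted p = 0.0686), and it passed in 5 of 20 alternative settings, among them that without knockout 6 (adjusted p = 0.0367). Fads2 had one of 0.10 (-0.10 to 0.29) and Elovl5 one of -0.05 (-0.22 to 0.11). Me1, the cytosolic malic enzyme that supplies NADPH for fatty acid synthesis, fell. Its levels were 10.74, 10.72, 10.76 and 10.50 in the knockout arrays, against 11.27, 11.08, 11.19 and 11.16 in the control arrays. Every knockout array was lower, with 70.9% of the control level kept (-0.50, SE 0.07; limma adjusted p = 0.00248), and the second probe set gave -0.52.

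Scd1, the main stearoyl-CoA desaturase of mouse liver, differed between arrays more than between groups. Its log2 levels were 12.03, 11.27, 11.66 and 11.80 in the knockout arrays, against 12.50, 11.65, 11.98 and 10.12 in the control arrays. The highest and the lowest array were both controls, and the group difference of 0.13 had a 95% interval of -0.85 to 1.10 (limma adjusted p = 0.942). Its sign turned without control 4, to -0.35. The mean level of the hepatocyte markers was 9.71, 9.11, 10.73 and 9.95 in the same knockout arrays, against 10.80, 9.56, 10.57 and 8.62 in the control arrays. The 4 control arrays had the same order in Scd1 and in these markers, and knockout 6 was the lowest knockout array in both. The other knockout arrays differed in order, since knockout 7 was the highest in these markers and the third in Scd1. With marker levels as covariates the difference of Scd1 was -0.08 (limma adjusted p = 0.87). Elovl6 had the same order as the hepatocyte markers within each group, with control 4 lowest, and its groups did not overlap. Its difference with the covariates was 1.25 (limma adjusted p = 2.27e-05). The part of hepatocyte RNA in the levels of Scd1 and Elovl6 was not tested.

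**Figure D3:**
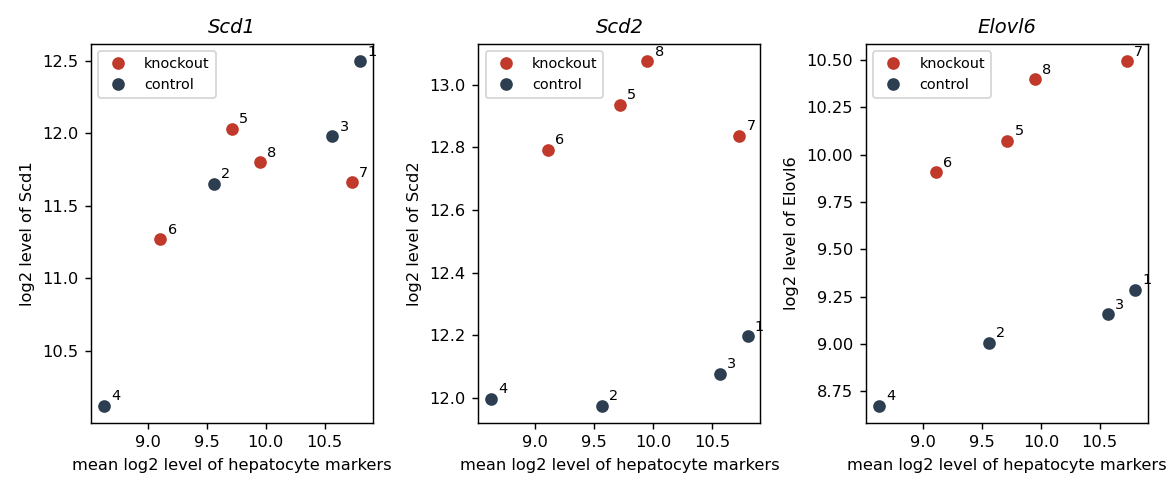
Each panel sets the log2 level of one gene (y axis) against the mean log2 level of 16 hepatocyte markers (x axis) in each array, numbered by replicate. Scd1 runs from 10.12 to 12.50 with the groups overlapping, while for Scd2 and Elovl6 the knockout arrays lie above all control arrays across the range of hepatocyte marker levels.

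Averaged over the genes of a branch, every knockout array lay above every control array in each branch. For the sterol branch the mean deviation from the control mean was 0.49, 0.31, 0.63 and 0.62 in the knockout arrays, against 0.05, -0.14, 0.12 and -0.04 in the control arrays. For the regulators it was 0.38, 0.32, 0.53 and 0.55 in the knockout arrays, against 0.01, -0.09, 0.09 and -0.003 in the control arrays. For the fatty acid branch it was 0.35, 0.13, 0.32 and 0.39 in the knockout arrays, against 0.13, -0.05, 0.11 and -0.20 in the control arrays. The fatty acid means of knockout 6 (0.135) and control 1 (0.130) nearly met. Knockout 6 was the lowest knockout array in 12 of 17 sterol genes and 9 of 11 fatty acid genes, and also in all 16 hepatocyte markers. Control 2 was the lowest control array in 10 of 17 sterol genes. In 25 of the 34 members (73.5%) the knockout arrays spread over a wider range than the control arrays, against 40.7% of all genes. These means describe members chosen as a list and carry no test.

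**Figure D4:**
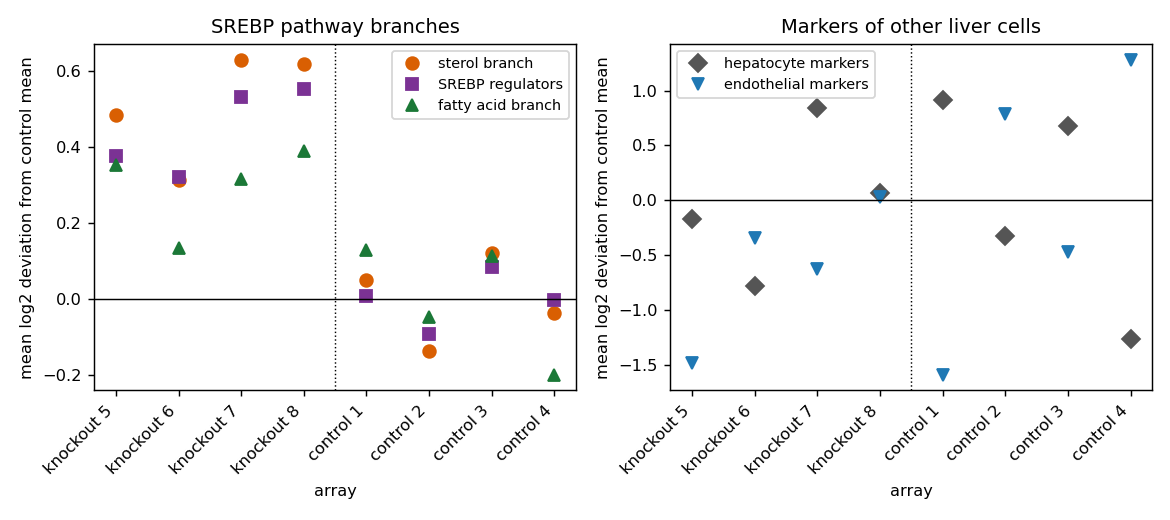
Points are array means, over the genes of a list, of the log2 level minus each gene's control mean, for the branches (left panel) and for markers of hepatocytes and endothelial cells (right panel). The sterol branch separates the knockout arrays (0.31 to 0.63) from the control arrays (-0.14 to 0.12), and the 2 marker lists drawn have knockout and control arrays mixed. The mean levels of portal fibroblast and stellate cell markers, not drawn, separate the groups (8.78 to 9.01 in knockout and 7.83 to 8.06 in control arrays, and 13.20 to 13.25 in knockout and 13.32 to 13.42 in control arrays).

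Markers of other cells were examined beside these counts. None of the 16 hepatocyte markers passed in limma, with 1 at an unadjusted p under 0.05. Of 12 endothelial markers 1 fell (Clec4g), where 3.63% of all genes were called lower. All 12 had a negative difference, with a median of -0.55. Of 11 markers of Kupffer cells and leukocytes 1 fell (Cd68), with 4 at an unadjusted p under 0.05 and 5 with a positive difference. Among those that missed the threshold, Clec4f had a difference of -0.45 with groups apart (limma adjusted p = 0.0517) and Vsig4 one of -1.24 with groups that overlapped (limma adjusted p = 0.1045). The mean level of the 11 was 7.32 to 7.78 in the knockout arrays and 7.37 to 8.24 in the control arrays. Of 10 portal fibroblast markers 5 rose (Cd34, Dpep1, Dpt, Eln and Mfap4), where 3.76% of all genes were called higher. The other 5 did not pass, with differences of -0.10 for Thy1, -0.007 for Gli1, -0.295 for Entpd2, 0.27 for Fbln2 and 0.14 for Clec3b. The mean level of all 10 was 8.78 to 9.01 in the knockout arrays and 7.83 to 8.06 in the control arrays. Their mean deviation from the control mean was 0.81 to 1.04 in the knockout arrays, and the median deviation was 0.28 to 0.44. Cd34 (3.08), Dpep1 (2.37) and Dpt (2.28) had the largest differences. Of 10 stellate cell markers 3 fell (Rgs5, Hgf and Reln), where 3.63% of all genes were called lower. In 5 of the 10 every knockout array lay below every control array, against 6.32% of all genes. Lrat, the retinoid acyltransferase, had a difference of 0.10. Of 5 cholangiocyte markers none passed, with 0 at an unadjusted p under 0.05, and their mean level was 6.68 to 6.86 in the knockout arrays and 6.70 to 6.91 in the control arrays. The part of portal fibroblasts or other cells in the SREBP results was not tested. In sorted bulk RNA, more cells of a type and more RNA per cell cannot be told apart.

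Genes of neighbouring pathways were counted in the same way, and listed genes without a probe set of their own were not analysed here. With 3.76% of all genes called higher and 3.63% lower, a single call in a list of 9 to 16 genes is near that background and is given as a value of the gene, not of the list. Of 7 measured genes from a list of further sterol synthesis and SREBP-2 target genes, 2 rose and 5 did not pass, with a median of 0.01. They were Tmem97, the sigma-2 receptor and a partner of NPC1 (0.94, SE 0.08; limma adjusted p = 0.000112), and Mmab, a cobalamin enzyme whose gene shares its promoter region with Mvk (0.48, SE 0.10; limma adjusted p = 0.0175). Of 9 genes of SREBP processing and turnover, 1 rose, Erlin1, which restrains SREBP in the endoplasmic reticulum (0.53, SE 0.09; limma adjusted p = 0.00698). Of 10 genes of LXR and cholesterol efflux, 1 rose, Lpcat3, a phospholipid acyltransferase (0.40, SE 0.07; limma adjusted p = 0.0106). Of 16 genes of cholesterol uptake, trafficking and storage, Npc1, the lysosomal cholesterol exporter, rose by 0.51 (SE 0.05; limma adjusted p = 0.000183). In the same list Lipa, lysosomal acid lipase, fell by 0.27 (SE 0.07; limma adjusted p = 0.036).

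Of 27 further genes of fatty acid and glycerolipid synthesis, 4 rose (14.8%, against 3.76% of all genes), 3 fell (11.1%, against 3.63%) and 20 did not pass, with a median of 0.05. Hacd4, a dehydratase of the elongation cycle (1.09, SE 0.12), Mid1ip1, an activator of acetyl-CoA carboxylase (0.73, SE 0.09), and Gpam, the mitochondrial glycerol phosphate acyltransferase (0.66, SE 0.06), rose. Acsl5, a long-chain acyl-CoA synthetase, fell by 0.55 (SE 0.05). The limma adjusted p of these 4 genes lay between 8.6e-05 and 0.000938. The remaining calls, named after their values were seen, were a rise of Slc25a1, the mitochondrial citrate carrier (0.45), and falls of Fads3, a fatty acid desaturase relative (-0.52), and Acsl4, a synthetase for arachidonate (-0.26). Of 14 genes of fatty acid oxidation 0 passed in limma, with 1 at an unadjusted p under 0.05 and a median of 0.003.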

How the data were processed

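Sorted mouse hepatic stellate cells were profiled on 8 whole-transcript Affymetrix arrays, 4 knockout and 4 control, grouped by sample title. The authors deposited 1 log2 expression value per probe set and array, normalized with RMA, per the submitters' processing notes. RMA compresses differences of very dim and very bright probe sets. Its version and any batch are details not given in the sources used here. No array pair held identical values, and the number of arrays limits the precision.

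Of 35556 probe sets, 21789 had 1 gene symbol in the platform annotation, 1621 several (left out) and 12146 none. Identifiers of 21698 matched RefSeq (GRCm38.p6), which changed 0 symbols. The probe set with the highest mean stood for a gene, giving 19938 genes. Knockout minus control was fitted with lmFit and eBayes (limma 3.58.1, R 4.3.3) without a filter. The two-sided p-values were adjusted by the Benjamini-Hochberg method over the whole table, with a threshold of 0.05. As a guide to unexpressed levels, 1190 olfactory and vomeronasal receptor genes had a 95th percentile of 6.77. All 34 measured members were above it in every array. The fitting code was tested on simulated data.

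All members are named, with up to 4 called genes of each neighbouring list by size of difference. Another 3 called genes of fatty acid and glycerolipid synthesis, the called markers and Cyp2e1 were picked once their values were known. The members and lists were chosen with earlier results of these data known. Alternatives were 2 further normalizations, 2 filters on dim genes, a trended robust fit, array weights, other uses of probe sets, leaving out arrays, marker levels as covariates and 2 stricter thresholds.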

Additional observations from a re-analysis of the deposited data

Results flagged for a closer look

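Within the groups of 4 arrays, 70 groups (34 members and Lhx2, each in knockout and control arrays) were examined for an array far from the other 3, and 3 were found, where chance gives about 1 in 20. Me1 was 10.50 in knockout 8, with the nearest knockout array at 10.72. Insig2 was 10.34 in knockout 8, with the nearest knockout array at 10.56. Fdft1 was 7.83 in control 2, with the nearest control array at 8.08.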

How the results depend on the processing

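Of the 20 members past the threshold, 20 kept their direction in all 20 alternatives. The direction could not turn in several of these. The filters on dim genes, the trended robust fit, the fit of every probe set on its own and the stricter thresholds leave a gene's difference as it was. The 8 members that also stayed past 0.05 in every alternative other than the stricter thresholds were Srebf1, Srebf2, Hsd17b7, Fdft1, Msmo1, Elovl6, Scd2 and Me1. Leaving out 1 array at a time gave 8 to 12 risen sterol genes, 3 to 5 risen fatty acid genes with 1 fallen each time, 2 to 3 risen regulators, and 8 to 10 risen and 2 to 4 fallen genes of the neighbouring lists. Over all genes it gave 502 to 790 risen and 487 to 677 fallen, and for Lhx2 a difference of -0.73 to -0.59. The 11 risen sterol genes became 4 without control 1 and control 4, 6 at an adjusted p under 0.01 and 6 with a change of at least 1.5-fold. The 4 risen fatty acid genes became 2 at 1.5-fold, where 0 had fallen, and 2 without control 1 and control 4. All called genes came to 371 risen and 405 fallen without control 1 and control 4, to 386 and 389 at 0.01, and to 284 and 239 at 1.5-fold. The 9 risen genes of the neighbouring lists became 14 under quantile normalization and 4 at 1.5-fold, and the 4 fallen ones became 0 at 1.5-fold and 2 at 0.01, with the covariates, and without control 1 and control 4. Leaving out arrays also lowers their number, and stricter thresholds call fewer genes by construction. The cause of the change under quantile normalization was not tested. Signs turned for 3 genes that did not pass. Scd1 ranged from -0.352 (without control 4) to 0.441 over single arrays left out, and was -0.081 with the covariates and -0.124 without control 1 and control 4. Ebp ranged from -0.131 to 0.068, above 0 without knockout 6 or control 3, and was 0.019 with the covariates. Scap ranged from -0.017 (without knockout 7) to 0.040. No paired analysis was possible because the groups share no replicate number.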
